A study of Arabidopsis thaliana with 24 samples.

Results

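Transcript levels of pnp1-1 and wild-type (WT) Arabidopsis shoots were compared after 1 week without phosphate, on 6 of the 24 arrays of the series. The members are all arrays that the labels give as 1 week on -P medium, 3 from WT (Columbia-0) and 3 from pnp1-1 (SALK_013306), a line that the series title names as null for the polynucleotide phosphorylase of chloroplasts. Seedlings of both genotypes first grew for 2 weeks on full Murashige and Skoog (MS) medium with 0.5% sucrose at 22 °C, in a 16 h photoperiod at 200 µmol m-2 s-1. They were then rinsed and moved to -P medium, in which KH2PO4 was left out and K2SO4 made up the potassium, and were harvested without roots at 3 weeks of age. Each array holds RNA pooled from at least 4 seedlings. The mutant is a single insertion line in every cell of the plant. The 6 arrays of the same genotypes and age on +P medium, on which phosphate was kept, give the differences on the other medium. They also enter the test of whether the genotype difference changed with the medium. The spread behind each error and p-value comes from all 24 arrays unless stated otherwise.

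Polynucleotide phosphorylase (PNPase) is a nucleus-encoded enzyme of the plastid that degrades RNA from the 3′ end with inorganic phosphate as the co-substrate. It trims the 3′ ends of plastid transcripts and removes RNA that carries short A-rich tails, which in plastids mark a transcript for decay. Genes of the plastid genome are mostly transcribed together as multi-gene units and cut afterwards into smaller RNAs. The question put by the comparison was how shoots that lack the enzyme differed from WT when phosphate was withheld. The gene table used here names no probe set (the group of probes that reports 1 transcript) for PNP1 itself, so the level of the disrupted gene was not analysed here.

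Intensities of 22746 probe sets were measured on each array, and 13513 of these are paired with exactly 1 gene in the annotation used. Differences are log2(pnp1-1) minus log2(WT) from a limma fit over all 24 arrays, errors are standard errors (SE, n = 3 arrays per genotype), and a probe set was called at a Benjamini-Hochberg adjusted p under 0.05. Levels are compared between arrays and never between genes. Between 40.3% and 41.2% of the probe sets on the 6 arrays lay under an intensity of 16, where a fold change depends on the background correction, so differences with levels under 16 set to 16 are given where they matter. Replicates of a genotype correlated at 0.981 to 0.986 across probe sets. Same-numbered arrays of the 2 genotypes correlated as highly, at 0.982, 0.986 and 0.984, and the other pairs across genotypes at 0.967 to 0.984. Same-numbered WT and pnp1-1 arrays deviated together (r = 0.546, 0.623 and 0.600 across probe sets), so a fit with the replicate number as a block was made too.

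In pnp1-1, 250 probe sets were higher (1.1% of all) and 124 lower (0.545%), 374 in all or 1.64%. The median log2 difference was 1.41 among the higher and -1.48 among the lower, against 0.01 over all probe sets. Groups did not overlap for 367 of the 374, against 12.4% of all probe sets, so a lack of overlap does not set a called gene apart from the others. It was also a condition for the ranking of the 12 largest rises and falls. Of the 374, 183 are paired with 1 gene, of which 23 are plastid genes, 158 nuclear genes and 2 mitochondrial genes by name. With the replicate block and only the 6 arrays, which leaves 2 residual degrees of freedom, 8 probe sets were called (0.0352%), while the block with the spread taken over all 24 arrays gave 592 (2.6%), among them 373 of the 374. Of the genes named here, petD, rps14, rbcL and AT2G32020 were called in the 6-array block fit, and every other gene called without the block lost its call there. Without WT replicate 3 the count was 181, and without pnp1-1 replicate 2 it was 200; 145 of the 374 were called in each of the 6 fits that left out 1 of the arrays.

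Among called probe sets paired with 1 gene and with groups that did not overlap, plastid-encoded transcripts made up 7 of the 12 largest rises. Of 69 plastid probe sets, 18 rose, 5 fell and 46 were not called, so that 33.3% were called against 1.64% of all probe sets. Their median log2 difference was 0.40 against 0.01 over all probe sets. A higher mean in pnp1-1 was found for 52 of the 69, against 13432 of all 22746 probe sets. At least 4-fold rises were found for 12 genes, and they came from photosystem II, the cytochrome b6f complex, Rubisco and the ribosome, with matK and ycf3 besides. The labelling kit primes from oligo(dT), so a plastid transcript reaches the array through an A-rich stretch or tail; the amount of a transcript and the share of it that carries a tail cannot be told apart here. In bulk shoots, fewer cells of a type and less RNA per cell cannot be told apart either.

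**Figure D1:**
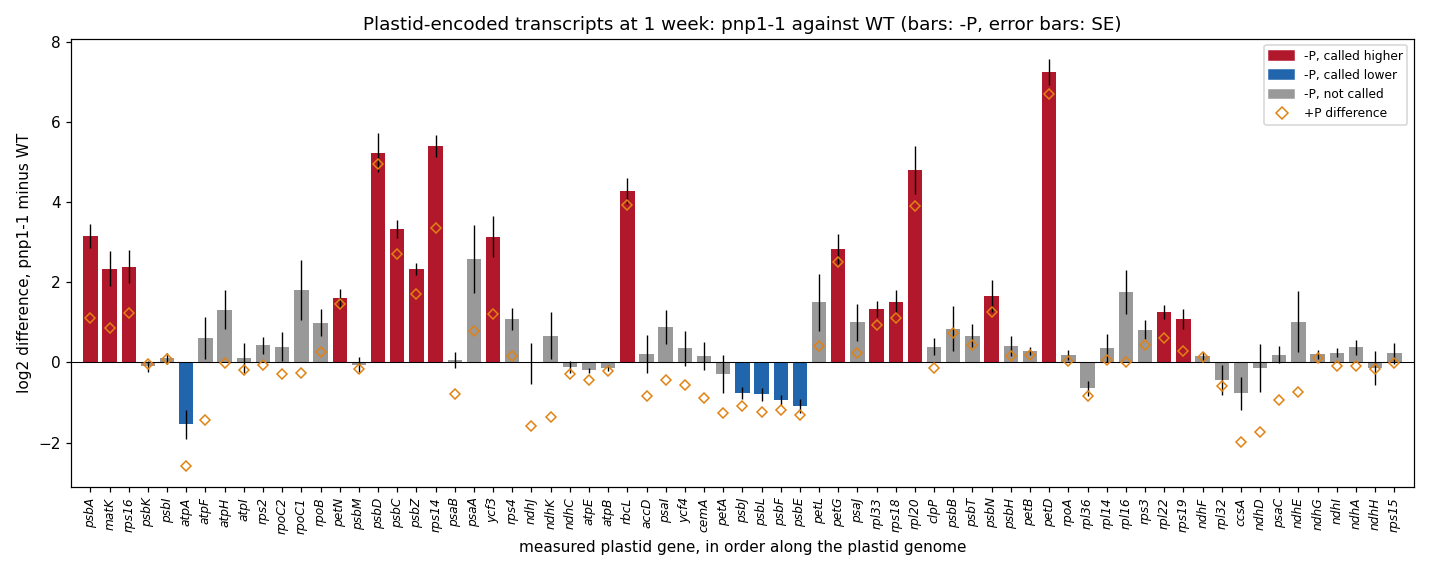
Log2 difference between pnp1-1 and WT at 1 week for the 69 measured plastid genes in their order along the plastid genome. Bars are the differences on -P with SE (n = 3 arrays per genotype), red where called higher, blue where called lower and grey where not called; open diamonds are the differences on +P. The tallest bar is petD at 7.24, the 4 neighbours psbD, psbC, psbZ and rps14 stand together at 2.33 to 5.40, and the 4 neighbours psbJ, psbL, psbF and psbE lie together below 0.

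In the plot of differences along the plastid genome, most called genes lay in runs of neighbours called in the same direction. Genes are ordered by position whatever their strand, so a run is not by itself a transcription unit. How many such neighbours a random placement would give was not tested. In the gene order of the TAIR10.1 annotation, 16 of the 23 called genes had a neighbour called in the same direction, and of 68 neighbouring pairs of measured genes 8 were both higher, 3 both lower and none 1 higher and 1 lower. The runs were psbA, matK and rps16; psbD, psbC, psbZ and rps14; rpl33, rps18 and rpl20; rpl22 and rps19; and, falling, psbJ, psbL, psbF and psbE. The last 4 are transcribed as 1 unit in plants, as are psbD, psbC and psbZ. Members of 1 unit did not all change: in the unit that holds psbB, psbT, psbH, petB and petD, petD alone was called. The psbN gene, which lies inside that unit on the other strand, rose.

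Photosystem II splits water and starts photosynthetic electron transport, and its plastid genes moved in both directions. Of its 15 measured psb genes, 5 rose and 4 fell. The reaction-centre gene psbD, for the D2 protein, had intensities of 396, 236 and 698 in WT and 18229, 13682 and 13896 in pnp1-1, so that each pnp1-1 array lay far above each WT array. Its difference was 5.23 ± 0.49 (adjusted p = 5.38e-06), a 37.6-fold rise. The D1 gene psbA read 808, 781 and 1879 in WT and 8795, 9387 and 10105 in pnp1-1; the groups did not overlap although WT replicate 3 was well above the other WT arrays, and the difference was 3.15 ± 0.30 (adjusted p = 5.66e-06).

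The inner antenna gene psbC measured 2323, 1569.8 and 2806 in WT and 23927, 22514 and 19121 in pnp1-1 and differed by 3.32 ± 0.22 (adjusted p = 6.57e-08). For psbZ, a small subunit gene, the arrays gave 4026, 3183 and 4087 in WT and 18447, 19297 and 18595 in pnp1-1, and the groups were tight and apart, with a difference of 2.33 ± 0.15 (adjusted p = 5.62e-08). The small psbN gene, needed for photosystem II assembly, rose by 1.66 ± 0.39 (adjusted p = 0.0389), and leaving out any 1 of the 6 arrays ended the call. Opposite in direction were the genes of cytochrome b559 and its neighbours.

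Cytochrome b559 is built from the products of psbE and psbF. For psbE the arrays gave 4577, 4588 and 5199 in WT and 2364, 2082 and 2344 in pnp1-1, so that every pnp1-1 array lay below every WT array, and the difference was -1.08 ± 0.18 (adjusted p = 0.00244), a 2.12-fold fall. The psbF gene read 9338, 10564 and 9992 in WT and 4919, 5124 and 5579.7 in pnp1-1, again with no overlap, and differed by -0.94 ± 0.11 (adjusted p = 0.000127). Their neighbours psbL, with -0.80 ± 0.16 (adjusted p = 0.0129), and psbJ, with -0.76 ± 0.15 (adjusted p = 0.0127), were lower too. The psbL call ended without WT replicate 3 or pnp1-1 replicate 3, and the psbJ call without WT replicate 1 or pnp1-1 replicate 2. The other 6 psb genes were not called, with differences from -0.10 for psbK to 0.84 for psbB, the gene of the second inner antenna protein.

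The cytochrome b6f complex passes electrons from photosystem II to photosystem I, and 3 of its 6 plastid genes rose while none fell. The petD gene, for subunit IV, gave 4.64, 4.85 and 4.48 in WT and 619, 768 and 732 in pnp1-1: it was at background on each WT array and well above it on each pnp1-1 array. The difference was 7.24 ± 0.32 (adjusted p = 2.63e-10), or 5.46 with levels under 16 set to 16, in either case the largest rise of any probe set with 1 gene. Its upstream neighbour petB, for cytochrome b6, read 11274, 11978 and 13665 in WT and 13610.4, 17154 and 14283 in pnp1-1; these groups overlapped, and the difference of 0.28 ± 0.10 (adjusted p = 0.211) was not called.

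The small subunit genes petG and petN also rose. Intensities of petG were 106, 51.2 and 70.1 in WT and 559, 374 and 666 in pnp1-1, with a difference of 2.84 ± 0.37 (adjusted p = 0.000313). For petN they were 62.4, 64.4 and 69.7 in WT and 173, 190.1 and 243 in pnp1-1, with a difference of 1.61 ± 0.22 (adjusted p = 0.00055). Neither pair of groups overlapped. Another small subunit gene, petL, differed by 1.51 ± 0.71 (adjusted p = 0.456), and petA, for cytochrome f, by -0.28 ± 0.48 (adjusted p = 1); neither was called.

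Rubisco fixes CO2, and its large subunit is encoded by rbcL. The rbcL arrays read 488, 723 and 1106 in WT and 11503, 12120.0 and 20112 in pnp1-1, so that the groups lay far apart. The difference was 4.27 ± 0.33 (adjusted p = 4.68e-07), a 19.3-fold rise.

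Of 15 measured plastid genes for ribosomal proteins, 7 rose (3 of 7 rpl genes and 4 of 8 rps genes) and none fell. The small subunit gene rps14 gave 3.49, 4.09 and 4.37 in WT and 124, 159 and 241 in pnp1-1, at background on every WT array, and differed by 5.40 ± 0.28 (adjusted p = 2.09e-09), a value that the floor at 16 brought to 3.39. The large subunit gene rpl20 gave 17.8, 10.6 and 29.5 in WT and 365, 466 and 698 in pnp1-1 and differed by 4.79 ± 0.59 (adjusted p = 0.000156). Both sets of groups lay far apart. The rps16 gene read 21.2, 22.7 and 36.0 in WT and 94.8, 151 and 174 in pnp1-1 and differed by 2.39 ± 0.41 (adjusted p = 0.00369).

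Smaller rises were seen for rps18, at 1.497 ± 0.30 (adjusted p = 0.0132), rpl33, at 1.32 ± 0.20 (adjusted p = 0.00115), rpl22, at 1.26 ± 0.18 (adjusted p = 0.000663), and rps19, at 1.08 ± 0.25 (adjusted p = 0.0348). The rps18 call ended without WT replicate 2 or pnp1-1 replicate 2. The rps19 call ended without each of the arrays other than WT replicate 1. Among the genes that were not called, rps4 came closest, with 1.08 ± 0.28 (adjusted p = 0.0673), and rpl36 had the lowest value, -0.65 ± 0.19 (adjusted p = 0.103).

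The other 2 plastid rises lie outside these complexes. The gene matK codes for an intron maturase, a splicing factor, and gave 832, 555 and 1910.2 in WT and 4102, 4161 and 6636 in pnp1-1; the groups did not overlap, though WT replicate 3 and pnp1-1 replicate 3 were the highest of their genotypes, and the difference was 2.34 ± 0.44 (adjusted p = 0.00799). The gene ycf3, whose product assembles photosystem I, gave 93.1, 45.0 and 153 in WT and 751, 552 and 1052 in pnp1-1 and differed by 3.14 ± 0.50 (adjusted p = 0.00213). Neither clpP, for a protease subunit, at 0.39 ± 0.21 (adjusted p = 0.568), nor accD, for a subunit of acetyl-CoA carboxylase, at 0.20 ± 0.48 (adjusted p = 1), was called.

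The ATP synthase subunit gene atpA was the plastid transcript with the largest fall. Its arrays read 2107, 1351 and 1847 in WT and 495, 491 and 878 in pnp1-1, with no overlap, and the difference was -1.54 ± 0.37 (adjusted p = 0.0394). Its call ended on leaving out WT replicate 1, WT replicate 3, pnp1-1 replicate 1 or pnp1-1 replicate 2. The 5 other atp genes were not called, with values from -0.20 for atpE to 1.32 for atpH. None of the 5 photosystem I genes was called: psaA, a reaction-centre gene, had the largest value, 2.58 ± 0.84 (adjusted p = 0.165), and its cotranscribed neighbour psaB had 0.07 ± 0.20 (adjusted p = 1). None of the 10 ndh genes, for the plastid NAD(P)H dehydrogenase, was called (median 0.18), nor any of the 4 rpo genes, for the plastid RNA polymerase (median 0.69). Of the 69 probe sets, 5 lay under 16 in both genotypes.

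Plastid levels also varied between arrays of 1 genotype. Taken against the mean of the WT arrays, the median over the 69 plastid probe sets was 0.06, -0.26 and 0.20 on WT arrays 1 to 3 and 0.36, 0.48 and 0.72 on pnp1-1 arrays 1 to 3. WT replicate 3 was the highest WT array for 44 of the 69, and pnp1-1 replicate 3 the highest mutant array for 33. Over nuclear probe sets the same medians stayed between -0.06 and 0.07. Without replicate 3 of both genotypes, 16 of the 23 plastid calls remained, 15 of them rises and 1 a fall, and 17 were called in each of the 6 fits that left out 1 array. Without WT replicate 1 or WT replicate 3, 3 falls were called. With the replicate block on the 6 arrays alone, petD (adjusted p = 0.0119), rps14 (adjusted p = 0.0425) and rbcL (adjusted p = 0.0425) stayed called, and the others had adjusted p from 0.0647 to 0.121. With the block and the spread taken over all arrays, the 18 rises and 5 falls were all called.

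On +P, where other arrays were used, all 23 called plastid genes had a difference of the same sign. So had 357 of all 374 called probe sets, so the shared sign is not particular to plastid genes. For petD the +P arrays gave 4.41, 4.49 and 4.42 in WT and 439, 486 and 445 in pnp1-1, a difference of 6.68 ± 0.32; psbD differed by 4.94 ± 0.49 and rbcL by 3.92 ± 0.33 on that medium. For all 18 genes that rose, the difference was larger on -P, and for all 5 that fell, the fall was larger on +P. Among all plastid probe sets, 68 of 69 had a more positive difference on -P than on +P, against 9691 of all 22746 probe sets. The median excess was 0.53 for the plastid probe sets, against -0.03 over all probe sets. These genes share the same 12 arrays, so they do not count as 69 separate observations.

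Gene by gene, no plastid transcript passed the test of that excess. An unadjusted p under 0.05 was reached by 18 of the 69, against 1185 of all 22746 probe sets. The smallest p was that of rps14, with an excess of 2.05 ± 0.39 (adjusted p = 0.0682), followed by psbA, with 2.04 ± 0.42 (adjusted p = 0.108). The excess was slightly larger for rpoC1, at 2.09 ± 1.07 (adjusted p = 0.941), and atpF, at 2.06 ± 0.74 (adjusted p = 0.732), with wider errors. On +P, rps14 read 7.21, 7.96 and 6.71 in WT and 50.5, 82.2 and 98.6 in pnp1-1. On the same medium psbA read 3064, 1985 and 1927 in WT and 3879, 5240.3 and 5818 in pnp1-1, so that its mean was lower on -P than on +P in WT (1059 against 2271) and higher on -P in pnp1-1 (9414 against 4909). The fall of atpA was -2.59 ± 0.37 on +P, and that of psbE was -1.31 ± 0.18.

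Mitochondrial transcripts were few on these arrays. Of 23 probe sets that carry names of mitochondrial genes in the platform's annotation, 6 reached a mean of 16, and 2 rose: ccb382, for a factor of cytochrome c assembly, and cox1, for a subunit of cytochrome c oxidase. The ccb382 arrays read 29.8, 29.3 and 41.8 in WT and 169, 110.4 and 202 in pnp1-1, with a difference of 2.23 ± 0.38 (adjusted p = 0.00346). The cox1 arrays read 77.5, 93.1 and 115 in WT and 227, 246 and 282 in pnp1-1, with a difference of 1.42 ± 0.33 (adjusted p = 0.0327) that passed in none of the fits with 1 of the 6 arrays left out. The 8.7% called stands against 1.64% of all probe sets, and the median of the 23 was 0.02. With the block on the 6 arrays alone, both had an adjusted p of 0.0647. A nuclear chromosome of Columbia also carries a large copy of mitochondrial DNA, so that RNA of the nuclear copy and of the organelle cannot be told apart.

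**Figure D2:**
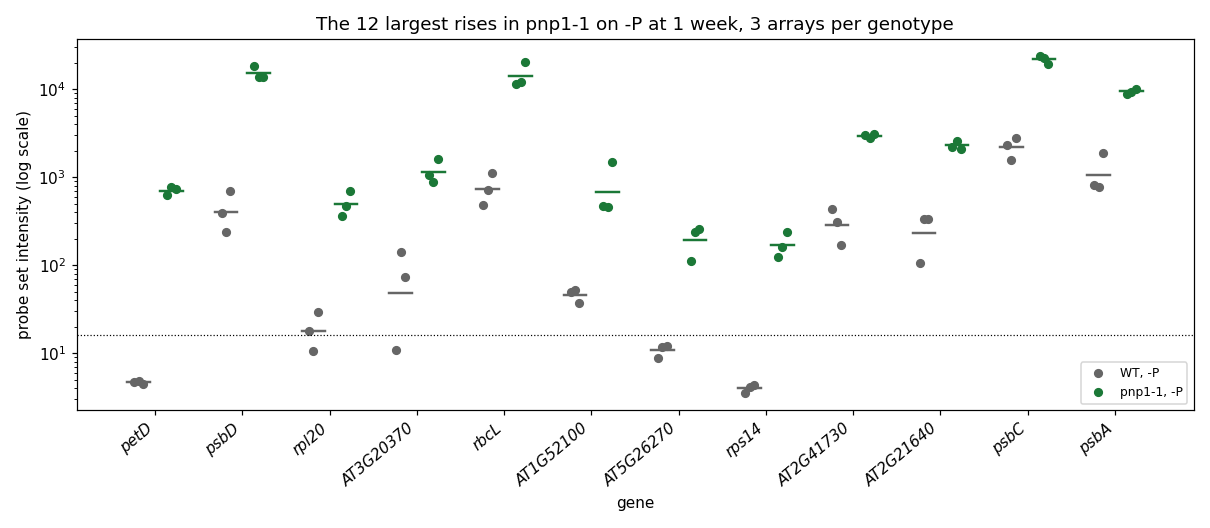
Intensity (log scale) on each -P array of the 12 genes with the largest rises, WT in grey and pnp1-1 in green, with the geometric mean as a bar and the intensity of 16 as a dotted line. Of the 12, 7 are plastid genes. Only called probe sets paired with 1 gene and without overlap were ranked, so no WT point reaches a pnp1-1 point of the same gene.

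Among the 158 called nuclear genes, 99 rose and 59 fell, which is 1.18% of the 13367 measured. The gene table gives 132 of them by locus only, and those get no role here. The plot of the 12 largest rises holds 5 such loci. AT3G20370 read 10.9, 139 and 72.8 in WT and 1053, 880.4 and 1608 in pnp1-1, with much spread in WT and none of it reaching pnp1-1, and differed by 4.57 ± 0.71 (adjusted p = 0.00167). AT1G52100, with 3.92 ± 0.44 (adjusted p = 5.13e-05), AT5G26270, with 4.15 ± 0.42 (adjusted p = 1.42e-05), AT2G41730, with 3.37 ± 0.35 (adjusted p = 2.2e-05), and AT2G21640, with 3.33 ± 0.40 (adjusted p = 0.000123), followed. AT2G32020, picked out after its values were seen, was the only nuclear gene called both here and with the block on the 6 arrays alone. Its arrays read 5.0, 5.31 and 6.09 in WT and 123, 95.7 and 126 in pnp1-1, and the difference was 4.39 ± 0.29 (adjusted p = 5.62e-08), or 2.83 with levels under 16 set to 16 (blocked adjusted p = 0.0425).

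Genes of the endoplasmic reticulum (ER) body were among the rises. ER bodies are compartments of Brassicaceae that store the beta-glucosidase PYK10, which meets its jacalin-related lectin (JAL) partners when cells are damaged. Of 7 such genes in the table, a group put together after the values were seen, 5 rose and none fell, which is 71.4% called against 1.64% of all probe sets; since the group was picked for its values, nothing is read from that share. PYK10 read 987, 3027 and 2051 in WT and 8984, 8160.0 and 8769 in pnp1-1, and each pnp1-1 array was above each WT array. It differed by 2.24 ± 0.35 (adjusted p = 0.00159).

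NAI2, which is needed to form ER bodies, read 84.8, 366 and 297 in WT and 1194, 1445 and 1686 in pnp1-1 and differed by 2.77 ± 0.41 (adjusted p = 0.000979). The lectin genes JAL33, at 2.36 ± 0.44 (adjusted p = 0.00672), JAL34, at 2.22 ± 0.41 (adjusted p = 0.00718), and JAL22, at 1.89 ± 0.31 (adjusted p = 0.00228), rose as well, and in no case did the groups overlap. JAL23, at -1.20 ± 1.02 (adjusted p = 0.888), and the transcription factor gene NAI1, at 0.65 ± 0.34 (adjusted p = 0.554), were not called. On +P the difference of PYK10 was 3.46 ± 0.35 and that of NAI2 3.66 ± 0.41, and all 5 differences were larger there than on -P, without a call in the test of the excess. With the block on the 6 arrays alone, the 5 had adjusted p from 0.0683 to 0.114.

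Single named genes rose in several processes. NDB4, an alternative NAD(P)H dehydrogenase of mitochondria, gave 4.12, 3.12 and 3.20 in WT and 26.2, 20.3 and 39.8 in pnp1-1 and differed by 3.00 ± 0.43 (adjusted p = 0.000693), a value that the floor at 16 brought to 0.79; the 4 other alternative dehydrogenases in the table were not called. YLS5, named for yellowing leaves, rose by 2.08 ± 0.49 (adjusted p = 0.0367). Its call ended on leaving out each of the arrays other than WT replicate 2. DI21, named for drought induction, rose by 1.43 ± 0.27 (adjusted p = 0.00955). Its call ended on leaving out pnp1-1 replicate 2. BZIP60, a transcription factor of the unfolded protein response, read 1153, 1086 and 831 in WT and 1834, 1869.7 and 1572 in pnp1-1 and differed by 0.79 ± 0.16 (adjusted p = 0.0165). Its call ended on leaving out WT replicate 3 or pnp1-1 replicate 2.

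The plastid chaperonin gene Cpn60beta3, whose product helps proteins fold, read 266, 164 and 186 in WT and 404, 403 and 409 in pnp1-1, with the mutant arrays close together and above WT, and differed by 1.01 ± 0.14 (adjusted p = 0.000668). Its relatives Cpn60beta2, at 0.99 ± 0.40 (adjusted p = 0.313), and Cpn60beta4, at -0.13 ± 0.20 (adjusted p = 1), were not called. LigB, a dioxygenase-family gene, rose by 1.17 ± 0.20 (adjusted p = 0.00302). UGT73D1, for a sugar transferase, rose by 2.11 ± 0.34 (adjusted p = 0.00244), which became 0.82 with the floor at 16. The MADS-box gene AGL19 rose by 1.16 ± 0.19 (adjusted p = 0.00244), which became 0.57 with that floor.

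**Figure D3:**
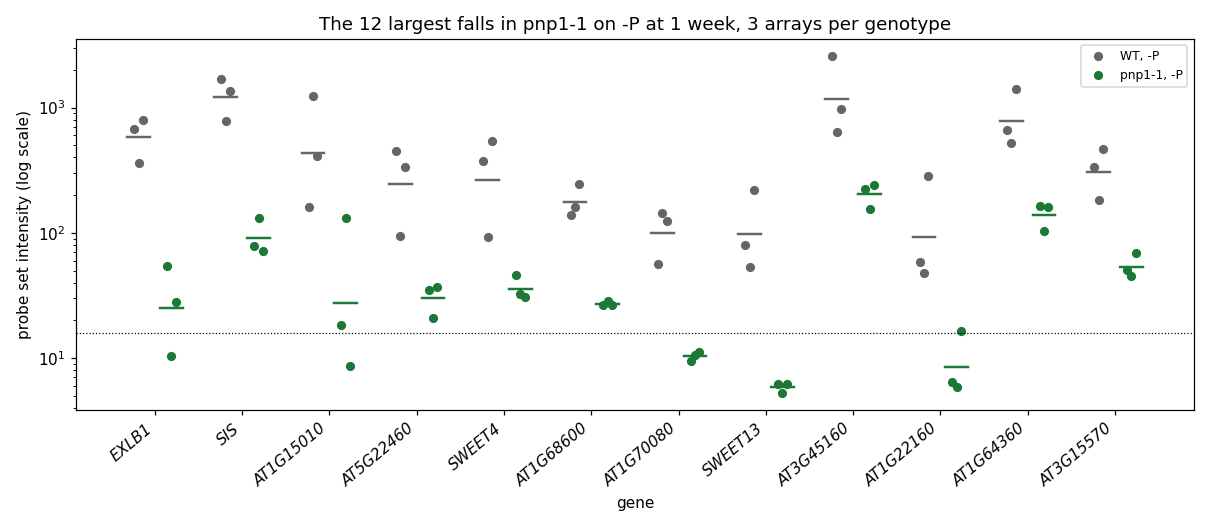
Intensity (log scale) on each -P array of the 12 genes with the largest falls, WT in grey and pnp1-1 in green, with the geometric mean as a bar and the intensity of 16 as a dotted line. All 12 are nuclear, and only called probe sets paired with 1 gene and without overlap were ranked. In pnp1-1, SWEET13 and AT1G70080 lie under the line on all 3 arrays.

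Among called probe sets paired with 1 gene and with groups that did not overlap, the 12 largest falls were all nuclear, as their plot shows. The lowest difference of any probe set, -6.28, belonged to a probe set with no gene listed, so its genome is not known. EXLB1, an expansin-like gene of the cell wall, read 669, 362 and 801 in WT and 54.8, 10.5 and 28.0 in pnp1-1, a 23.0-fold lower mean, and differed by -4.52 ± 0.68 (adjusted p = 0.00124). SIS read 1696, 781 and 1352 in WT and 78.6, 132 and 72.2 in pnp1-1, without overlap, and differed by -3.74 ± 0.60 (adjusted p = 0.00226). Of 18 expansin and expansin-like genes, a group put together after the values were seen, EXLB1 and EXPB3 fell and none rose. That is 11.1% against 0.545% of all probe sets called lower, and nothing is read from that share. Groups did not overlap for 11.1% of the 18, against 12.4% of all probe sets. EXPB3 read 142, 26.8 and 85.2 in WT and 7.32, 6.37 and 13.7 in pnp1-1 and differed by -3.00 ± 0.68 (adjusted p = 0.031). Its call ended on leaving out WT replicate 1, WT replicate 3, pnp1-1 replicate 1 or pnp1-1 replicate 2. Over the 18 the median was -0.06, and 8 of them reached a mean of 16.

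SWEET proteins carry sugars across membranes. Of 16 SWEET genes in the table, 3 fell and none rose, 18.8% against 0.545% of all probe sets called lower, in a group also picked after its values were seen. Of the 16, 8 had positive and 8 negative values, with a median of -0.001. SWEET13 gave 80.6, 53.2 and 218 in WT and 6.23, 5.23 and 6.20 in pnp1-1: it was above background on each WT array and below it on each mutant array. The difference was -4.06 ± 0.57 (adjusted p = 0.00055), or -2.61 with levels under 16 set to 16. SWEET4 gave 372, 92.9 and 539.7 in WT and 46.0, 32.6 and 30.8 in pnp1-1 and differed by -2.89 ± 0.52 (adjusted p = 0.00577).

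The third call, AtVEX1 (SWEET5), at -0.70 ± 0.16 (adjusted p = 0.031), lay under 16 on every array, and its groups overlapped. That call ended without WT replicate 2, WT replicate 3, pnp1-1 replicate 2 or pnp1-1 replicate 3. The well-measured SWEET11 gave 3298, 4000.5 and 4209 in WT and 5713, 4212 and 3485 in pnp1-1 and was not called, at 0.20 ± 0.20 (adjusted p = 0.987). On +P, SWEET13 was at background in both genotypes (5.41 in WT and 6.44 in pnp1-1, geometric means), so its difference there was 0.25 ± 0.57 and the excess on -P -4.31 ± 0.80 (adjusted p = 0.055), short of a call. EXLB1 had geometric means of 19.1 in WT and 6.88 in pnp1-1 on +P, a difference of -1.47 ± 0.68 in the same direction as on -P, and its excess was -3.05 ± 0.97 (adjusted p = 0.584).

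Among carbon stores, APL4, a large subunit of the enzyme that makes ADP-glucose for starch, read 71.3, 63.2 and 90.7 in WT and 11.6, 16.4 and 17.7 in pnp1-1 and differed by -2.31 ± 0.40 (adjusted p = 0.00352). Its relative APL3 read 261, 123 and 538 in WT and 142, 37.8 and 141 in pnp1-1, with overlap, and was not called, at -1.50 ± 0.78 (adjusted p = 0.536). SCPL27, a serine carboxypeptidase-like gene, fell, with -1.65 ± 0.28 (adjusted p = 0.0032), and so did FHL, which brings phytochrome A into the nucleus, with -1.25 ± 0.22 (adjusted p = 0.00483). PTI1-4, a protein kinase gene, had a lower level, with -0.84 ± 0.18 (adjusted p = 0.0199), as had CUL4, a scaffold of ubiquitin ligases, with -0.49 ± 0.10 (adjusted p = 0.0169). The PTI1-4 call ended without WT replicate 1, WT replicate 3 or pnp1-1 replicate 2, and the CUL4 call without WT replicate 2, WT replicate 3 or pnp1-1 replicate 2.

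The other large falls are known by locus. AT1G70080 read 56.4, 143 and 125 in WT and 9.54, 10.5 and 11.3 in pnp1-1, with no overlap, and differed by -3.27 ± 0.29 (adjusted p = 3.46e-06). AT1G68600 read 139.6, 161 and 246 in WT and 26.7, 28.5 and 26.3 in pnp1-1, with all mutant arrays close together, and differed by -2.70 ± 0.39 (adjusted p = 0.000741). AT3G15570, at -2.50 ± 0.42 (adjusted p = 0.00327), was also called in each fit that left out 1 array. The other 5 were AT1G15010, at -3.97 ± 0.92 (adjusted p = 0.0339), AT5G22460, at -3.02 ± 0.68 (adjusted p = 0.0273), AT3G45160, at -2.53 ± 0.50 (adjusted p = 0.0125), AT1G22160, at -3.45 ± 0.70 (adjusted p = 0.0141), and AT1G64360, at -2.50 ± 0.54 (adjusted p = 0.0201). All 5 lost the call without at least 1 array: AT1G15010 without WT replicate 2, WT replicate 3, pnp1-1 replicate 1 or pnp1-1 replicate 3, and AT5G22460 without WT replicate 1, WT replicate 3, pnp1-1 replicate 2 or pnp1-1 replicate 3. AT3G45160 lost it without WT replicate 1 or pnp1-1 replicate 2, and AT1G22160 and AT1G64360 without WT replicate 3 or pnp1-1 replicate 2. With the block on the 6 arrays alone, none of the 12 largest falls was called (adjusted p from 0.0647 to 0.132).

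**Figure D4:**
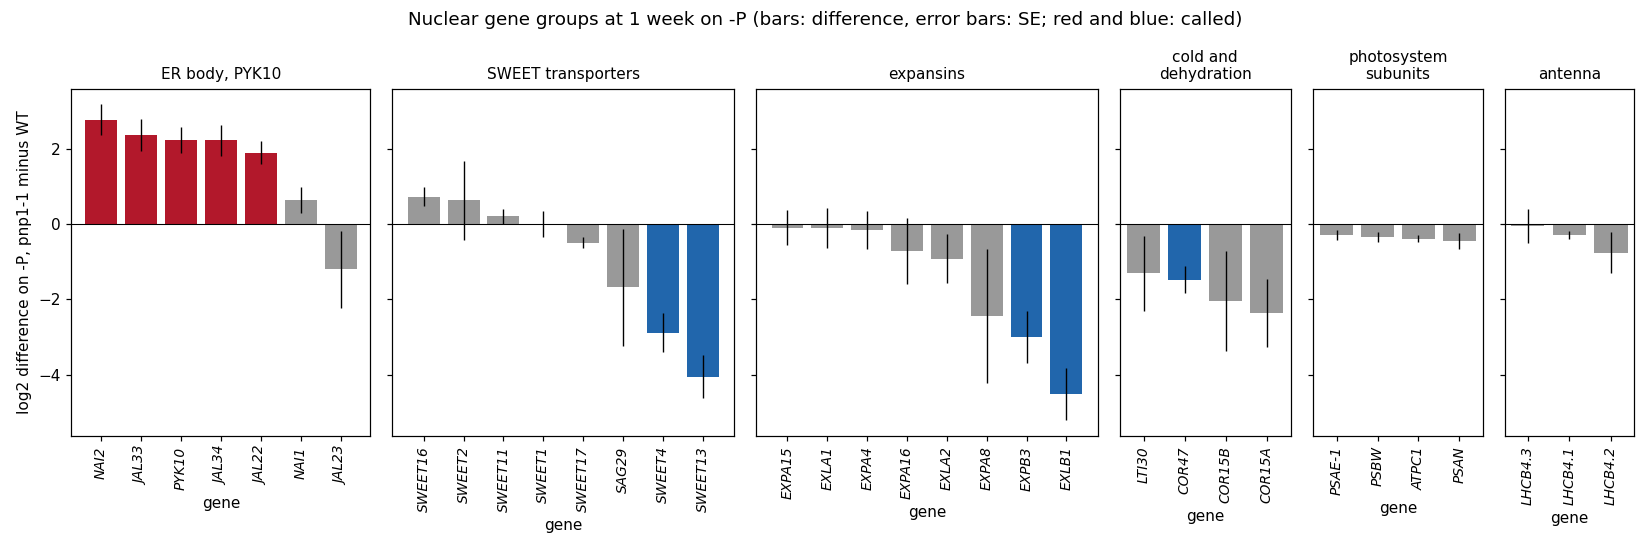
Log2 difference between pnp1-1 and WT on -P at 1 week, with SE (n = 3 arrays per genotype), for the members of 6 nuclear gene groups that reach a mean intensity of 16 in a genotype; red and blue bars were called and grey bars were not. ER body genes stand at 1.89 to 2.77 for 5 of 7, SWEET13 and EXLB1 are lowest in their groups, and the photosystem and antenna genes all lie below 0.

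Of 27 lists of gene functions, 21 had measured members, 51 in all, and 1 member was called, a share near the 1.64% of all probe sets: COR47, a dehydrin gene of cold and drought. Among lists with at least 2 measured members, medians ran from -1.76 for cold and dehydration to 1.45 for salicylic acid defence, against 0.01 over all probe sets. COR47 read 6096, 6121 and 5497 in WT and 3072, 1837 and 1667 in pnp1-1, so that each mutant array was under each WT array, and differed by -1.48 ± 0.35 (adjusted p = 0.0397). Its call ended on leaving out each of the arrays other than pnp1-1 replicate 1. The 3 other cold genes had large negative values with wide spread. COR15A read 10026, 3258 and 1804 in WT and 4443, 398 and 240.4 in pnp1-1, with overlap, and differed by -2.37 ± 0.90 (adjusted p = 0.265). COR15B differed by -2.05 ± 1.33 (adjusted p = 0.712) and LTI30 by -1.31 ± 0.99 (adjusted p = 0.825); neither was called.

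Nuclear genes of photosynthesis had negative differences and were not called. The 4 photosystem and ATP synthase subunit genes had a median of -0.37, the 3 antenna genes -0.30 and the 3 Calvin cycle genes -0.30. ATPC1, the gamma subunit of the plastid ATP synthase, came closest: it read 14873, 14465 and 16029.5 in WT and 13347, 10684 and 10721 in pnp1-1, without overlap, and differed by -0.39 ± 0.10 (adjusted p = 0.052), which was called with the block and the spread over all arrays (adjusted p = 0.0375). PSAN, a photosystem I subunit, differed by -0.45 ± 0.22 (adjusted p = 0.475). For the antenna gene LHCB4.2 the value was -0.76 ± 0.55 (adjusted p = 0.792), and for LHCB4.1 it was -0.30 ± 0.11 (adjusted p = 0.239). PRK, of the Calvin cycle, stood at -0.31 ± 0.29 (adjusted p = 0.932) and SBPASE at -0.30 ± 0.31 (adjusted p = 0.984). The 6 chlorophyll synthesis genes showed no common direction, with 3 positive and 3 negative values and a median of 0.03. Of these, PORB had the value farthest from 0, -0.86 ± 0.33 (adjusted p = 0.27), before CHLM, at -0.36 ± 0.24 (adjusted p = 0.73). Of 11 nuclear genes for the assembly of the photosystems and the NAD(P)H dehydrogenase, 10 had negative values (median -0.14), against 9314 of all 22746 probe sets. Of 8 pentatricopeptide repeat genes for plastid RNA editing, 4 reached a mean of 16. Positive values were found for 7 of the 8 (median 0.09), against 13432 of all 22746 probe sets. Both groups were put together after the values were seen, so nothing is read from these counts. None of either group was called.

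Of defence and stress genes, the 2 of the salicylic acid list and the 4 WRKY, ZAT and ERF factors had positive differences, and none was called. GRX480, a glutaredoxin induced by salicylic acid, read 109.8, 187 and 102 in WT and 658, 532 and 401 in pnp1-1, without overlap, and differed by 2.02 ± 0.56 (adjusted p = 0.0852). WRKY53, a senescence and defence transcription factor, read 16.9, 28.5 and 18.9 in WT and 29.6, 191 and 159 in pnp1-1, with the lowest mutant array just above WT, and differed by 2.21 ± 0.66 (adjusted p = 0.123). SAG101, a defence regulator, differed by 0.88 ± 0.31 (adjusted p = 0.216), and STZ, a zinc finger factor of abiotic stress, by 0.62 ± 0.46 (adjusted p = 0.812). The jasmonate-responsive genes THI2.1, at -0.77 ± 1.05 (adjusted p = 1), and PDF1.2, at -0.28 ± 0.97 (adjusted p = 1), had large errors. The median of 11 tau glutathione transferases, detoxifying enzymes, was -0.18, with none called.

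The remaining lists gave few values. In the late anthocyanin pathway, whose pigments build up in phosphate-starved shoots, DFR read 661, 32.7 and 1021 in WT and 296, 10.6 and 475 in pnp1-1 and differed by -1.29 ± 2.13 (adjusted p = 1); replicate 2 was low in both genotypes. UF3GT differed by -0.61 ± 1.28 (adjusted p = 1). UGT78D1, of flavonol glycosylation, stood at -0.21 ± 0.59 (adjusted p = 1). BCAT4 and UGT74B1, of glucosinolate synthesis, had -1.28 ± 0.50 (adjusted p = 0.283) and 0.77 ± 0.27 (adjusted p = 0.203).

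The clock gene GI had -0.79 ± 0.80 (adjusted p = 0.981), the senescence gene SAG29 (SWEET15) -1.68 ± 1.56 (adjusted p = 0.934), the starch enzyme gene DPE1 0.05 ± 0.48 (adjusted p = 1) and the stress-linked dehydrogenase gene NDB2 0.19 ± 0.54 (adjusted p = 1). CCS, the copper chaperone of superoxide dismutase, had -0.21 ± 0.49 (adjusted p = 1). PYE, a regulator of iron deficiency, had 0.02 ± 0.75 (adjusted p = 1), and AUR1, a kinase of cell division, 0.18 ± 0.56 (adjusted p = 1). None was called. On the list for phosphate sensing and transport the only gene measured, LPR1, was at background on all 6 arrays. Genes of phosphate scavenging and membrane lipid remodelling were not analysed here, since the gene table pairs none with a probe set.

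Few tissue markers were measured. RCA, Rubisco activase of leaf mesophyll, read 28113, 22981 and 31904 in WT and 24909, 17512 and 29028 in pnp1-1. Of 12 root markers 2 were measured, and these, EXPA7 and EXPA18, were at most 3.56 on the 6 arrays, and the shoot meristem marker CLV3 at most 4.22. Of 3 guard cell lineage markers, FMA read 33.7, 142 and 109 in WT and 73.3, 161 and 122 in pnp1-1, and SPCH and MUTE were at background. SWEET11, on the list for vasculature, is given above. Flower markers were not analysed here, and none of the markers was called.

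Whether the genotype difference itself changed with the medium was tested over the 12 arrays at 1 week within the same fit. The difference was more positive on -P for 12 probe sets and more negative for 6, 18 in all or 0.0791%, while 1185 had an unadjusted p under 0.05; 11 of the 18 are paired with 1 gene. On +P, WT arrays 2 and 3 stand apart as unusually alike, since their log2 difference had an SD of 0.27 across probe sets, against 0.41 or more for every other pair of the 12 arrays. Identical values do not set this pair apart: it shared 404, while WT +P replicate 2 and pnp1-1 +P replicate 3 shared 1308, and WT -P replicate 3, a compared array, shared 801 with WT +P replicate 3 and 764 with WT +P replicate 2. Averaging them to 1 sample left 12 calls here and 333 for the comparison on -P, through the shared spread. Without pnp1-1 -P replicate 1 there were 61 calls, without WT +P replicate 1 there were 48 and without pnp1-1 +P replicate 3 there were 29; without pnp1-1 +P replicate 1 there were 9, and without WT +P replicate 2 or pnp1-1 -P replicate 2 there were 11. With the replicate block, 2 probe sets were called on the 12 arrays alone and 26 with the spread over all arrays.

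**Figure D5:**
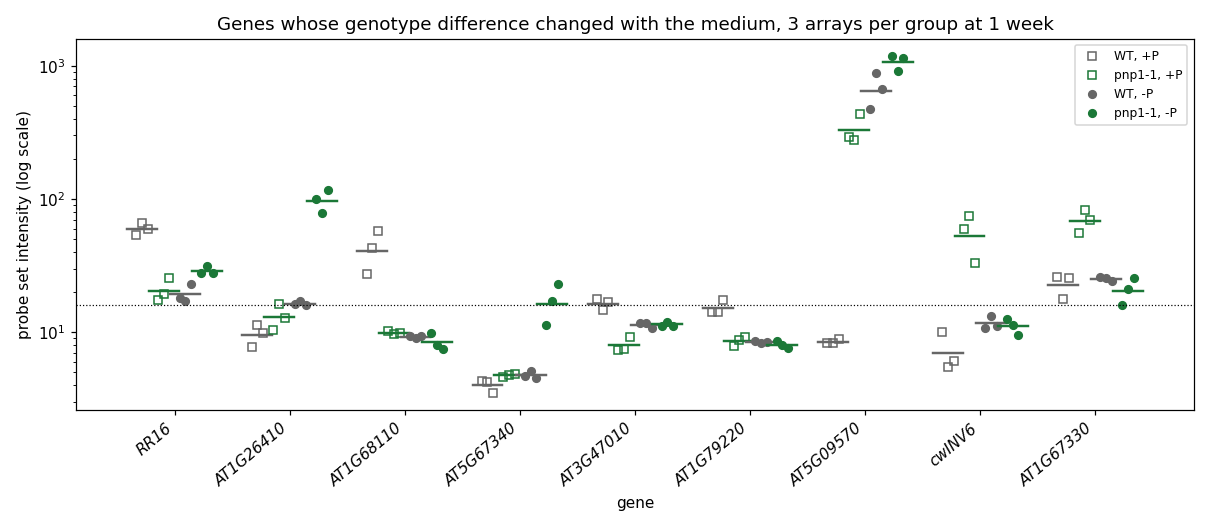
Intensity (log scale) on each array at 1 week of the 9 named genes whose genotype difference changed with the medium; squares are +P and circles -P, grey WT and green pnp1-1, bars geometric means, and the dotted line an intensity of 16. AT1G26410 is highest on the pnp1-1 -P arrays, at 78.1 to 116, and AT5G09570 is at background only in the WT +P arrays.

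The plot of arrays on both media shows the pattern of each. AT1G26410 on -P read 16.2, 17.0 and 16.0 in WT and 99.1, 78.1 and 116 in pnp1-1, and on +P 7.79, 11.3 and 9.79 in WT and 10.3, 16.4 and 12.8 in pnp1-1. Its difference was 2.56 ± 0.16 (adjusted p = 3.57e-08) on -P and 0.44 ± 0.16 on +P, an excess of 2.12 ± 0.23 (adjusted p = 0.000183). RR16, a type-A response regulator of cytokinin signalling, read 53.7, 65.8 and 59.2 in WT and 17.35, 19.2 and 25.6 in pnp1-1 on +P and 18.0, 17.3 and 23.2 in WT and 28.0, 31.3 and 27.9 in pnp1-1 on -P. WT was the higher genotype on +P and the lower on -P, with an excess of 2.12 ± 0.34 (adjusted p = 0.0165).

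AT5G09570 went the other way. On +P it read 8.34, 8.26 and 8.97 in WT and 289.8, 276 and 435 in pnp1-1, and on -P 472, 877 and 664 in WT and 1187, 909.6 and 1147 in pnp1-1, so that the genotypes lay far apart on +P and close, without overlap, on -P. The excess was -4.54 ± 0.55 (adjusted p = 0.000824), the only one of the 9 called also with the block on the 12 arrays alone (adjusted p = 0.0157). The gene cwINV6, named for cell wall invertases, read 10.1, 5.44 and 6.09 in WT and 59.3, 74.5 and 33.1 in pnp1-1 on +P and was at background in both genotypes on -P (11.7 in WT and 11.1 in pnp1-1, geometric means), an excess of -3.00 ± 0.32 (adjusted p = 0.000183). AT1G67330 stood at 22.7 in WT and 68.1 in pnp1-1 on +P and 25.1 in WT and 20.5 in pnp1-1 on -P (geometric means), an excess of -1.87 ± 0.34 (adjusted p = 0.0402).

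The 4 other loci were near background on -P. AT1G68110 had geometric means of 40.8 in WT and 9.86 in pnp1-1 on +P and 9.27 in WT and 8.40 in pnp1-1 on -P, an excess of 1.91 ± 0.31 (adjusted p = 0.0197). AT5G67340 rose on -P, at 1.78 ± 0.16 (adjusted p = 3.08e-06), from 4.78 in WT and 16.4 in pnp1-1, an excess of 1.54 ± 0.22 (adjusted p = 0.00678) that fell to 0.21 with levels under 16 set to 16. AT3G47010, with 1.05 ± 0.16 (adjusted p = 0.00882), and AT1G79220, with 0.76 ± 0.13 (adjusted p = 0.0234), had no group mean above 16.4, and neither was called with that floor.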

How the data were processed

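RNA of Arabidopsis shoots was hybridised to 24 one-colour Affymetrix ATH1 arrays. Per the labels' protocols, total RNA was extracted with DNase treatment and 1 microgram was amplified and biotin-labelled from oligo(dT) with a MessageAmp II kit. The submitters' processing notes name GCRMA (a background correction and summary that uses probe base composition), affy and limma, without versions. The deposited table holds 1 linear intensity per probe set and array, which entered the analysis as log2 of the deposited value, with no further scaling.

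Of 22810 probe sets, 64 hybridisation controls were left out. In the platform's annotation, 13513 probe sets pair with 1 gene, 503 with several (left unnamed) and 8730 with none listed. Of the 13513, 13436 matched the RefSeq gene table (TAIR10.1), which supplied symbols. With limma 3.58.1 (R 4.3.3; lmFit and eBayes), 1 mean for each of 8 groups was fitted to the 24 arrays together, and p-values were adjusted by Benjamini-Hochberg across the 22746 probe sets; n is 3 arrays per group, which limits the precision. The labels call them biological replicates of separate seedling pools. Same-numbered WT and pnp1-1 arrays deviated from their group means together (r above 0.5 for each pair). The numbers were therefore taken to pair the arrays, and fits with the replicate number as a block are given. Deviations within a group cancel out, so the negative values of all other pairs (-0.28 to -0.31) follow from this and add no support. Over plastid probe sets alone, r was 0.33, 0.429 and 0.679 for same-numbered arrays. It was 0.32 for WT replicate 1 with pnp1-1 replicate 2, and -0.555 to 0.162 for the other pairs. Pair 1 is thus not set apart there. Tested on simulated data for the comparison on -P (22746 probe sets, 200 changed), the fit recovered 84.5% of 4-fold changes and 47.5% of 2-fold changes. The changes were put only into probe sets of middle level in WT, and the simulated noise was independent, without pairs of arrays. The shares therefore do not hold for low or very high levels, nor for paired arrays.

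Genes are named by these rules: the 12 largest rises and falls, ranked with levels under 16 set to 16, among called probe sets with 1 gene and non-overlapping groups; up to 4 called members per list, or up to 2 of largest difference where none was called; and up to 6 changed differences in each direction. All plastid genes were members of a list of their own. The members and the lists were chosen with earlier results of these data known. Of 572 entries in 34 lists, 58 were measured. The 9 further families (ER body, SWEET, expansin, alternative dehydrogenase, chaperonin, assembly, RNA editing, ADP-glucose pyrophosphorylase and glutathione transferase) and any other named gene were picked after the values were seen. PNP1 was not analysed here.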

Additional observations from a re-analysis of the deposited data

Results flagged for a closer look

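For 9 named genes the test of the difference between the genotype effects on the 2 media passed the threshold (limma, adjusted p under 0.05, 3 arrays per group). Values are the log2 difference between pnp1-1 and WT on -P minus that on +P. The genotype difference was more positive on -P for RR16, at 2.12 ± 0.34 (adjusted p = 0.0165), AT1G26410, at 2.12 ± 0.23 (adjusted p = 0.000183), AT1G68110, at 1.91 ± 0.31 (adjusted p = 0.0197), AT5G67340, at 1.54 ± 0.22 (adjusted p = 0.00678), AT3G47010, at 1.05 ± 0.16 (adjusted p = 0.00882), and AT1G79220, at 0.76 ± 0.13 (adjusted p = 0.0234). It was more negative on -P for AT5G09570, at -4.54 ± 0.55 (adjusted p = 0.000824), cwINV6, at -3.00 ± 0.32 (adjusted p = 0.000183), and AT1G67330, at -1.87 ± 0.34 (adjusted p = 0.0402). With levels under 16 set to 16, AT5G67340, AT3G47010 and AT1G79220 were no longer called. With the replicate block on the 12 arrays alone, AT5G09570 kept its call (adjusted p = 0.0157), and the other 8 had adjusted p from 0.0671 to 0.357.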

How the results depend on the processing

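No named difference changed direction while called under any alternative tried. The 374 calls on -P became 52 with the 6 compared arrays alone, 8 with the replicate block on those 6 arrays, 592 with the replicate block and the spread taken over all arrays, 3458 with array weights, 136 without replicate 3 of both genotypes, and 181 to 459 when 1 compared array was left out (200 without pnp1-1 replicate 2). The 18 changed differences between the media became 3 with the 12 arrays at 1 week alone, 2 with the replicate block, 26 with the block and the spread over all arrays, 34 with levels under 16 set to 16, 2594 with array weights, 11 with a filter on low values, and 9 to 61 when 1 array was left out. The 18 plastid rises became 8 with the 6 arrays alone and 3 with the replicate block. The 5 plastid falls became 1 with the 6 arrays alone, 0 with the limma block on 6 arrays (all 5 had an unadjusted p under 0.05 there, and the block with the spread over all arrays called 5), 2 with a fold of at least 2, 1 without replicate 3 of both genotypes, and 3 to 6 when 1 array was left out. Quantile normalization gave 352 calls on -P, centring 344, a trended prior 358, a floor of 16 303, a filter on low values 369 and the 12 arrays at 1 week 295. The share of calls that were higher was 66.8%, and 62.2% with arrays centred. Array weights were estimated gene by gene, since the iterative estimate did not converge. The block and the spread over all arrays, the averaging of 2 WT +P arrays and the fit without replicate 3 of both genotypes were chosen after seeing the data. The 6 arrays alone could not give the difference between the media, and alternatives for the PNP1 level were not run, since that gene was not analysed here. The cause of these changes was not tested, except that fewer arrays leave fewer residual degrees of freedom. Values under 16 are limited by background, and 3 arrays per group limit small changes.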
